A study of Mus musculus with 3 samples.

Results

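A set of 10 genes of the Wnt pathway was followed in 3 libraries of ST2, a stromal cell line from mouse bone marrow with the capacity to form osteoblasts or adipocytes. They were taken by name from the deposited gene table, which had 51826 rows, and each of the 10 was found on 1 row. They comprise 1 ligand (Wnt5a), 4 secreted factors of the Sfrp and Dickkopf families (Sfrp1, Sfrp2, Dkk2 and Dkk3), the co-receptors Lrp5 and Lrp6, the signal carrier Ctnnb1 (β-catenin), the feedback gene Axin2 and the transcription factor Tcf7l2.

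All cells had received a plasmid and 30 nM of siRNA with a lipid reagent. In the control, the plasmid was the empty vector and the siRNA a control. For NELL2 overexpression the plasmid was the NELL2 construct (NELL2-Myc in the study's methods) beside control siRNA. For Fn1 knockdown the empty vector was combined with siRNA against Fn1, the gene for fibronectin. The time between transfection and RNA isolation is not given in the sources used here. Where 3 values are listed below, they are in the order control, NELL2 overexpression, Fn1 knockdown. There was 1 library in each group, so every difference below lies between 2 libraries, has no replicate check and was not tested. In bulk RNA, fewer cells that express a gene and less of its RNA per cell cannot be told apart.

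Wnt proteins are secreted lipid-modified ligands that bind Frizzled receptors. With the co-receptors Lrp5 or Lrp6, a canonical Wnt signal stops the complex of Axin, Apc and Gsk3 from marking β-catenin for degradation. β-catenin then enters the nucleus and acts with TCF and LEF factors on target genes, of which Axin2 is among the best known. Canonical signalling in bone marrow stromal cells favours osteoblasts over adipocytes, and LRP5 is known for its effect on human bone mass. Sfrp proteins can bind the ligands themselves, whereas Dickkopf proteins such as Dkk1 and Dkk2 bind Lrp5 and Lrp6. Dkk3 is a divergent Dickkopf whose role in Wnt signalling is less settled.

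The libraries were alike in size and matched their labels. The totals were estimated at 23000000, 23700000 and 24200000 fragments, and mitochondrially encoded genes took 7.01%, 6.03% and 5.92% of all FPKM (fragments scaled to transcript length and to the mapped fragments of the library). Nell2 was at 0.640, 326 and 1.06 FPKM, and Fn1 at 2802, 2489 and 137 FPKM, in the same order. All 10 stromal markers examined, such as Col1a1 and Pdgfrb, were at 1 FPKM or more in every library. Of 6 epithelial markers none reached 1 FPKM, and of 6 endothelial markers only Kdr did, after Fn1 knockdown. Of 10 blood cell marker genes, 3 (Lyz2, Cd68 and Csf1r) were at 1 FPKM or more in every library. Others, such as Cd3e, Gata1 and Hbb-bs, were listed at 0 throughout. The summed FPKM of the whole blood cell list was 17.6, 19.9 and 10.2, largely from Lyz2 and Cd68. The part of these differences in the results below was not tested.

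The promoters of Dkk2, Axin2 and Sfrp2 are shown because these 3 genes had the largest ratios to the control among the 10. Each run covers 250 bases before and 50 bases from the transcription start in RefSeq (GRCm38.p6), plus strand for all 3 genes, written 5′ to 3′. The Dkk2 promoter lies at chr3:132085042-132085341, the Axin2 promoter at chr11:108920099-108920398 and the Sfrp2 promoter at chr3:83766071-83766370. Capitals mark the core CTTTG of TCF and LEF sites, the GC box GGGCGG and the TATA box TATAAA, each searched on both strands.
Dkk2: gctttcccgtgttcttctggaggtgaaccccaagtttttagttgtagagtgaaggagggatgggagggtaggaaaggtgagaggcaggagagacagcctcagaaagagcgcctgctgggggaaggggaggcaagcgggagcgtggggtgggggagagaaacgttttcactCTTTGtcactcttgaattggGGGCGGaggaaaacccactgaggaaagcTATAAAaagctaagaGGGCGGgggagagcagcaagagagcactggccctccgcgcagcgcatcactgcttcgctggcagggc
Axin2: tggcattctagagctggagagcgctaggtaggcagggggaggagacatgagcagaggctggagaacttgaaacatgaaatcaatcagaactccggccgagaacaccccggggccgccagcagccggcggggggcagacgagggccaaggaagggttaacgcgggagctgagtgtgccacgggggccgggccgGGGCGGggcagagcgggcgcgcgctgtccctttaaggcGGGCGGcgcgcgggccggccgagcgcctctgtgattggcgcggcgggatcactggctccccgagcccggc
Sfrp2: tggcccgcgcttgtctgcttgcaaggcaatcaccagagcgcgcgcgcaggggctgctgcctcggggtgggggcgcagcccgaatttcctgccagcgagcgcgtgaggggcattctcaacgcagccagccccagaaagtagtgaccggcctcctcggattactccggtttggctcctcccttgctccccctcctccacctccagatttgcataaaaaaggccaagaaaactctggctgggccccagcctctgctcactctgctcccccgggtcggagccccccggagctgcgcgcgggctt

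The promoters differed in these letters. That of Dkk2 held 1 CTTTG, 2 GC boxes and 1 TATA box, that of Axin2 held 2 GC boxes, and that of Sfrp2 held none of the motifs. Among 32851 promoters of the same length, 53.9% held CTTTG, 35.7% the GC box and 13.6% the TATA box. The longer forms CTTTGAA and CTTTGAT, which contain the core, were in 5.14% and 3.73% of all promoters and in none of the 3 shown. By base composition the Axin2 promoter was at 70.0% G and C with 31 CpG pairs, the Sfrp2 promoter at 66.0% with 22, and the Dkk2 promoter at 57.7% with 11, against medians of 52.7% and 7 over all promoters. A match is a run of letters and not a measured binding site, and its absence here concerns these windows alone. Promoters were matched for 5 of the 10 genes.

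The levels of the 10 genes spanned a wide range in every library. FPKM is a level per length, so these levels can be set side by side. Ctnnb1 was the highest, at 146, 146 and 152 FPKM. Dkk3 came next, at 108, 104 and 95.6 FPKM. A middle group held Lrp6, Lrp5, Wnt5a and Sfrp1, between 8.77 and 16.5 FPKM. Tcf7l2 and Axin2 were between 3.50 and 5.34 FPKM, and Sfrp2 and Dkk2 between 1.52 and 2.74 FPKM. Some neighbours changed places. Wnt5a passed Lrp5 in both treated libraries, and Axin2 passed Tcf7l2 and Dkk2 passed Sfrp2 after Fn1 knockdown. The spread of a level between cultures was not measured, so neighbours in this order cannot be said to differ.

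**Figure D1:**
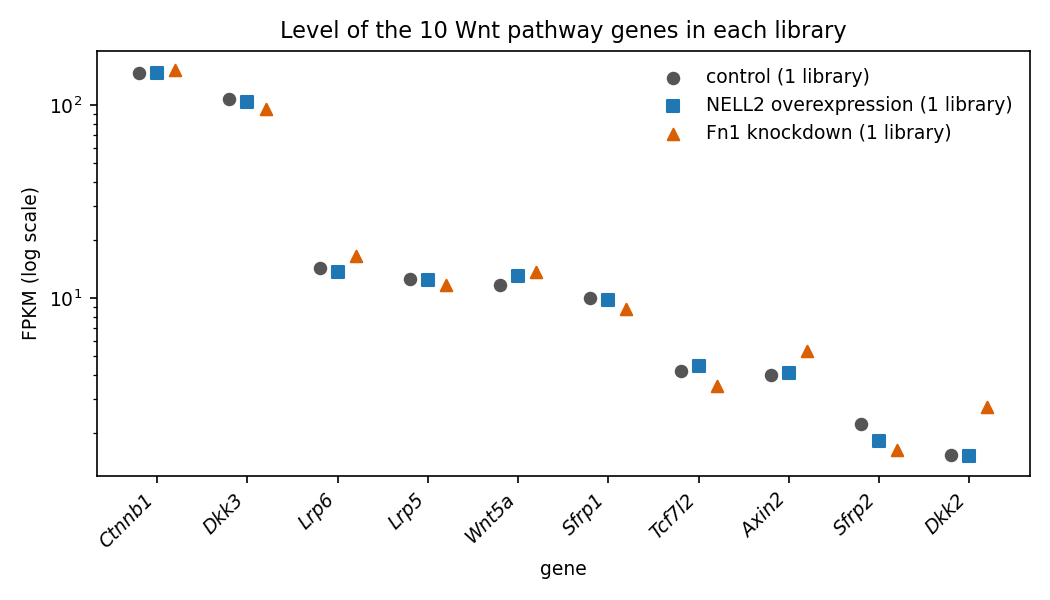
FPKM on a log axis for the 10 genes, ordered by control level, with 1 point for each library. Ctnnb1 and Dkk3 lie near 100 FPKM or above, Dkk2 and Sfrp2 below 3 FPKM, and the Fn1 knockdown point of Dkk2 (2.74 FPKM) stands above the other two of that gene.

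The first comparison asked how these genes differed when NELL2 was raised. Ratios to the control were taken on the log2(FPKM + 1) scale, and a gene counted as called at a ratio of at least 1 in size (2-fold on this scale) provided that either library reached 1 FPKM. None of the 10 genes was called with NELL2 overexpression, where 0.652% of 12572 genes were. All 10 stood above the filter in each library. At a lower cutoff of 0.32 in log2 ratio there was still none, against 5.50% of all genes called higher and 4.05% called lower. The log2 ratios ran from -0.19 (Sfrp2) to 0.15 (Wnt5a), with 4 above 0 and 6 below, and their median was -0.018 against 0.0072 over all genes.

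The second comparison asked how they differed when Fn1 was lowered. Again none of the 10 genes was called at 2-fold, where 1.23% of 12574 genes were. At the lower cutoff of 0.32, Dkk2 and Axin2 were higher, 2 of 10 against 10.2% of all genes, and none was lower, against 12.0%. These calls depended on the pseudocount, a choice of analysis varied after seeing the data. With 5, Dkk2 (0.24) and Axin2 (0.20) fell short of the cutoff, and with 0.1 or none Sfrp2 passed it downward (-0.42 and -0.44). The lower cutoff is used below with a pseudocount of 1, which draws genes of a few FPKM towards 0. The log2 ratios ran from -0.29 (Sfrp2) to 0.55 (Dkk2), 5 on each side of 0, with a median of -0.020 against -0.0028 over all genes. Axin2, at 0.34, lay close to that cutoff. Both comparisons use the same control library, so a gene that was high or low there by chance would be displaced in both.

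**Figure D2:**
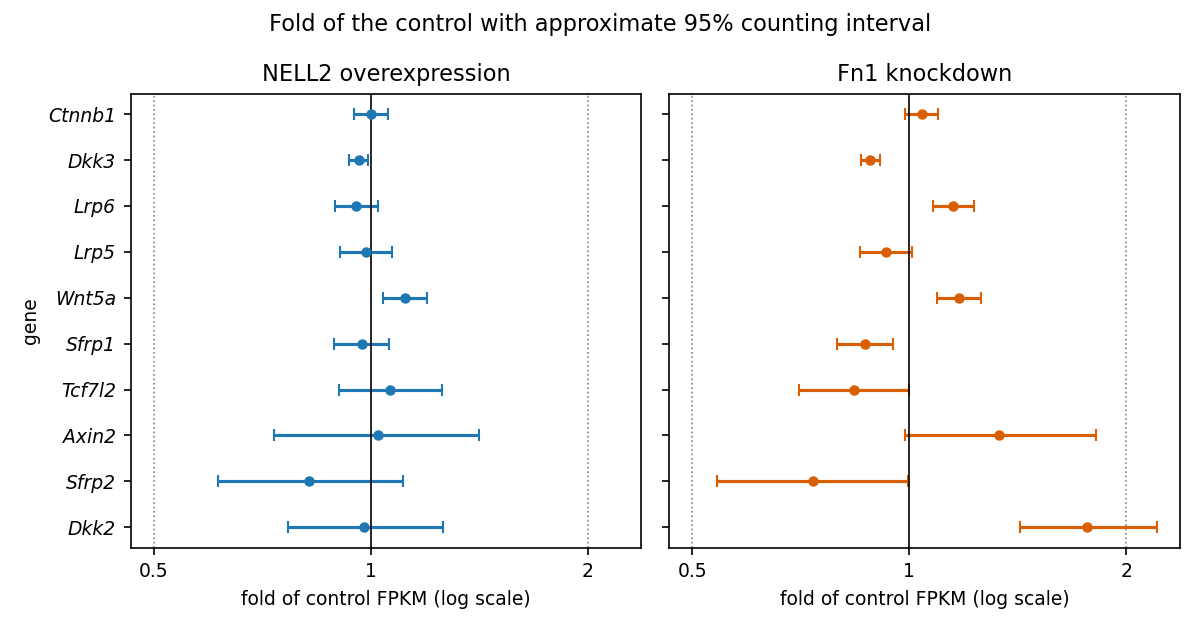
Fold of the control FPKM on a log axis for each gene, with bars for the approximate 95% counting interval and dotted lines at 0.5 and 2. In the NELL2 overexpression panel all points lie between 0.820 and 1.12, and in the Fn1 knockdown panel Dkk2 (1.77) and Axin2 (1.33) stand farthest to the right and Sfrp2 (0.735) farthest to the left.

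The precision was judged from fragments. Fragments per gene were estimated from FPKM, the total of the library and the median coding transcript length, and 95% intervals of the fold were taken from an exact binomial calculation. These intervals cover counting error only and leave out the difference between cultures. They left out 1 for 2 of the 10 genes with NELL2 overexpression (Wnt5a and Dkk3) and for 7 after Fn1 knockdown. With the longest coding transcript as the length, which gives more fragments, these numbers were 2 and 10. The share of all genes whose interval leaves out 1 was not computed, so these numbers do not set the 10 genes apart.

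Wnt5a was the most abundant Wnt ligand. It is best known for β-catenin-independent signalling, in part through the receptor Ror2. The gene (ENSMUSG00000021994.15, GRCm38 chromosome 14, 28504750 to 28527448, plus strand) was at 11.7, 13.1 and 13.7 FPKM in the control, the NELL2 library and the knockdown library, so the control was the lowest of the 3. The fold of the control was 1.12 with NELL2 overexpression (counting interval 1.04 to 1.20) and 1.17 after Fn1 knockdown (1.09 to 1.26). On the log2(FPKM + 1) scale these were ratios of 0.15 and 0.21, and 17.4% and 18.4% of all genes had a ratio at least as high.

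Among the 19 Wnt ligand genes, 5 were listed at 0 in all libraries and 8 reached 1 FPKM in any. Wnt5a held 40.1%, 40.8% and 37.6% of their summed FPKM. The second was Wnt9a, at 6.47, 7.46 and 7.90 FPKM. The sum over the family was 29.2, 32.0 and 36.5 FPKM. After Fn1 knockdown 7 of the 8 ligands at 1 FPKM were higher than in the control, against 49.5% of all genes, and 3 ligands were past the lower cutoff, against 10.2% of all genes. Their median log2 ratio was 0.25. Those 3 were Wnt2b (from 0.562 to 1.96 FPKM, about 43 to 157 fragments), Wnt11 (from 2.94 to 4.38 FPKM) and Wnt4 (from 0.954 to 1.46 FPKM). Wnt2b and Wnt4 passed the filter through the knockdown library alone, so the count of higher ligands partly follows from the filter. Wnt10b, a ligand known to favour osteoblasts, was at 2.24, 2.51 and 1.66 FPKM. With NELL2 overexpression 5 of 6 ligands at 1 FPKM were higher, against 52.3% of all genes, and the exception was Wnt2 (from 1.88 to 1.34 FPKM). None of the 6 passed the lower cutoff, where 5.50% of all genes did upward and 4.05% downward. Ligand secretion needs Wls, the carrier of Wnt proteins to the surface, and Porcn, which adds their lipid. Wls was at 176, 175 and 164 FPKM and Porcn at 1.62, 1.67 and 1.37 FPKM, neither called.

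The Sfrp genes encode soluble proteins with a Frizzled-like binding domain. For Sfrp1 and Sfrp2 the control, which both comparisons share, had the highest of the 3 levels, by little for Sfrp1. Sfrp1 (chromosome 8, 23411502 to 23449632, plus strand) was at 10.1, 9.80 and 8.77 FPKM. Its fold after Fn1 knockdown was 0.870 (counting interval 0.794 to 0.951), and with NELL2 overexpression 0.971 (0.889 to 1.06), an interval that includes 1. Sfrp2 (chromosome 3, 83766321 to 83774316, plus strand) was at 2.22, 1.82 and 1.63 FPKM, from about 102, 87 and 79 fragments. Its folds were 0.820 (0.613 to 1.11, which includes 1) and 0.735 (0.541 to 0.997), so counting error alone gives a wide range. The same order of the libraries was seen for the relatives Frzb, at 1.27, 0.981 and 0.863 FPKM, and Sfrp4, at 0.591, 0.402 and 0.339 FPKM. Sfrp5 was listed at 0. The summed FPKM of the 5 Sfrp family genes was 14.2, 13.0 and 11.6, of which Sfrp1 made up 71.2%, 75.4% and 75.6%. None of Sfrp1, Sfrp2 and Frzb was called or passed the lower cutoff on the log2(FPKM + 1) scale. The plain FPKM folds after knockdown were 0.735 for Sfrp2, 0.681 for Frzb and 0.574 for Sfrp4. Sfrp4 and Sfrp5 were under the filter of 1 FPKM in every library, so they could not be called. An exon of the antisense gene Gm26771 covers 16.1% of the exonic bases of Sfrp2, and whether the authors counted by strand is not given in the sources used here.

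Dkk2 had the largest ratio of the 10 genes. It encodes a secreted Dickkopf that binds the Lrp5 and Lrp6 co-receptors. The gene (ENSMUSG00000028031.6, chromosome 3, 132085292 to 132180304, plus strand) was at 1.55, 1.52 and 2.74 FPKM in the control, the NELL2 library and the knockdown library. The knockdown library was therefore high and the other two near-equal. The fold after knockdown was 1.77 (counting interval 1.43 to 2.20), from about 132 to 246 fragments over its single annotated transcript, and 0.980 (0.767 to 1.26) with NELL2 overexpression. The log2 ratio of 0.55 after knockdown was equalled or passed by 3.40% of all genes. Because Dkk2 is near 1 FPKM, its ratio depended on the pseudocount, at 0.82 with none and 0.24 with 5, and it stayed under 2-fold in each.

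Dkk3 was far more abundant, and after Fn1 knockdown it lay on the other side of the control from Dkk2. With NELL2 overexpression both were slightly below the control. Dkk3 was at 108, 104 and 95.6 FPKM (chromosome 7, 112116017 to 112159057, minus strand). Its folds were 0.963 (counting interval 0.934 to 0.993) and 0.884 (0.857 to 0.911), with about 8345 fragments in the control, and the log2 ratios of -0.054 and -0.18 were well inside the lower cutoff. Its level exceeded that of Dkk2 by 69.7-fold, 68.5-fold and 34.9-fold. Dkk1, the founding inhibitor of the family, was at 0.0179 FPKM in the control and listed at 0 in the other libraries, and Dkk4 was listed at 0 in all. The sclerostin gene Sost was likewise listed at 0.

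Of 17 secreted antagonist genes, 8 reached 1 FPKM in each comparison. Their median log2 ratio was -0.044 with NELL2 overexpression (2 higher, 6 lower) and -0.16 after Fn1 knockdown (3 higher, 5 lower). Dkk2 was the only one past the lower cutoff, 12.5% of the list after knockdown against 10.2% of all genes. Igfbp4, an IGF binding protein that also inhibits Wnt signalling, was higher in both treated libraries, at 68.1, 82.2 and 84.4 FPKM. Kremen1, a receptor through which Dickkopf proteins act on Lrp6, was at 19.4, 20.3 and 28.4 FPKM in the control, the NELL2 library and the knockdown library, a log2 ratio of 0.53 in the last.

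**Figure D3:**
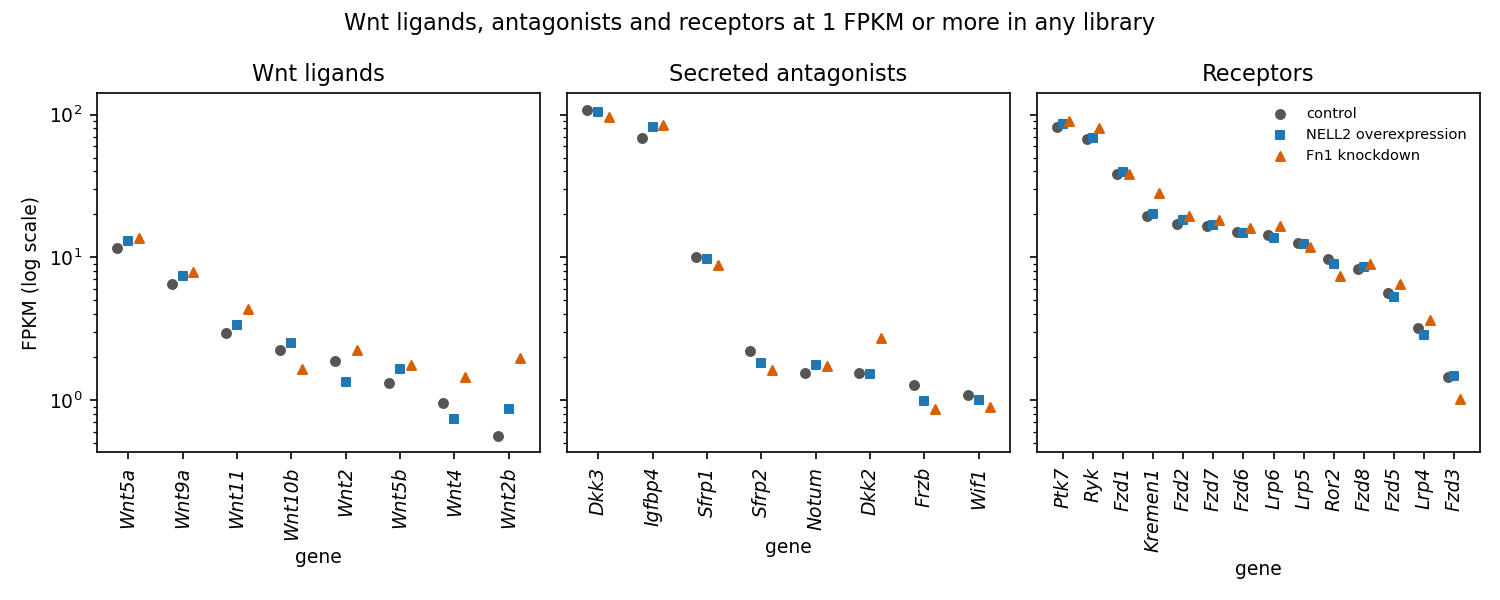
FPKM on a log axis for Wnt ligands, secreted antagonists and receptors that reached 1 FPKM in any library, with 1 point for each library. Wnt5a leads the ligands, Dkk3 and Igfbp4 the antagonists and Ptk7 and Ryk the receptors, and the knockdown points of Wnt2b, Dkk2 and Kremen1 lie above the other two.

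The co-receptors Lrp5 and Lrp6 were of similar level and differed little. Lrp6 (chromosome 6, 134446476 to 134566965, minus strand) was at 14.4, 13.7 and 16.5 FPKM. Lrp5 (chromosome 19, 3584828 to 3686564, minus strand) was at 12.6, 12.5 and 11.8 FPKM. After Fn1 knockdown the fold was 1.15 (counting interval 1.08 to 1.23) for Lrp6 and 0.930 (0.855 to 1.01) for Lrp5, so these co-receptors lay on opposite sides of the control. The level of Lrp6 over that of Lrp5 was 1.14, 1.10 and 1.41 in the control, the NELL2 library and the knockdown library. With NELL2 overexpression both intervals included 1.

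Among 19 receptor genes 14 reached 1 FPKM, with median log2 ratios of 0.015 with NELL2 overexpression and 0.13 after Fn1 knockdown. The most abundant Frizzled was Fzd1, at 38.4, 39.8 and 38.5 FPKM. Fzd2, Fzd6, Fzd7 and Fzd8 were between 8.24 and 19.5 FPKM in all libraries. After Fn1 knockdown 11 receptors were higher and 3 lower, where 49.5% of all genes were higher. Kremen1 passed the lower cutoff upward and Ror2 downward, each 7.14% of the list, below the 10.2% and 12.0% of all genes. Ror2, a receptor for Wnt5a, was at 9.79, 8.92 and 7.38 FPKM, a log2 ratio of -0.36 after knockdown, whereas Wnt5a itself was higher there. In the R-spondin axis, whose receptors raise the number of Frizzled proteins at the surface, Lgr6 was at 2.79, 3.18 and 6.18 FPKM and Lgr4 at 18.2, 17.4 and 25.4 FPKM, log2 ratios of 0.92 and 0.46 after Fn1 knockdown. Neither was called at 2-fold, though Lgr6 was with a pseudocount of 0.1 or none. Both passed the lower cutoff, 2 of 5 genes of this list at 1 FPKM (40.0%, against 10.2% of all genes). Their ligands Rspo2 and Rspo3 were between 1.32 and 2.01 FPKM in every library.

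Ctnnb1 transcript was nearly the same in the 3 libraries. It was at 146, 146 and 152 FPKM (ENSMUSG00000006932.17, chromosome 9, 120929216 to 120960507, plus strand). The folds were 1.001 (counting interval 0.949 to 1.06) and 1.04 (0.987 to 1.10) with the median coding length of 800 bases. With the longest coding transcript of 3623 bases the interval after knockdown was 1.02 to 1.07, which leaves out 1. Of all genes, 99.2% and 80.7% had a log2 ratio at least as far from 0. β-catenin is controlled mainly through the stability of the protein, which these libraries do not measure. Exons of the antisense gene Ulk4 cover 14.6% of the exonic bases of Ctnnb1.

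Axin2 passed the lower cutoff after Fn1 knockdown and not with NELL2 overexpression, a difference that was not tested. It encodes a scaffold of the β-catenin destruction complex and is itself a target of canonical signalling. The gene (ENSMUSG00000000142.15, chromosome 11, 108920349 to 108950783, plus strand) was at 4.01, 4.10 and 5.34 FPKM, so again the knockdown library was the high one. The fold after knockdown was 1.33 and that with NELL2 overexpression 1.02. The counting interval after knockdown was 0.987 to 1.82 with the median coding length of 826 bases (about 76 and 107 fragments) and 1.17 to 1.52 with the longest coding transcript of 4260 bases (about 392 and 550 fragments). The transcript length behind the deposited value is not given, so it is not known which of these intervals applies. A log2 ratio at least as high as its 0.34 was held by 9.21% of all genes.

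The cytoplasmic core list held 17 genes, all at 1 FPKM or more, with median log2 ratios of -0.0016 and 0.053. Apc, the large scaffold of the destruction complex, was at 8.02, 7.15 and 15.6 FPKM, a log2 ratio of 0.88. With Axin2 it was 1 of 2 genes of this list that were higher past the lower cutoff after knockdown, and Apc2 (from 1.98 to 1.11 FPKM, about 26 to 15 fragments) was the 1 that was lower, 11.8% and 5.88% of the list against 10.2% and 12.0% of all genes. Axin1 was at 14.6, 14.9 and 18.1 FPKM and Gsk3b at 17.8, 17.4 and 14.9 FPKM, both inside the lower cutoff.

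Tcf7l2 was lower after Fn1 knockdown without reaching the lower cutoff. This TCF factor carries the β-catenin signal to DNA. It was at 4.18, 4.45 and 3.50 FPKM (chromosome 19, 55741820 to 55933654, plus strand), so the knockdown library was the lowest. The folds were 1.06 (counting interval 0.903 to 1.26) and 0.838 (0.704 to 0.998). The most abundant of the 4 Tcf and Lef genes was Tcf7l1, at 57.0%, 54.0% and 55.0% of their summed FPKM, whereas Tcf7l2 held 21.4%, 23.6% and 20.3%. Lef1 was under 1 FPKM in all libraries. Of 11 nuclear factors at 1 FPKM, Bcl9l (from 26.8 to 19.6 FPKM) and the co-repressor Tle3 (from 10.1 to 7.23 FPKM) were lower past that cutoff after knockdown and Tle1 (from 12.1 to 15.4 FPKM) was higher. These are 18.2% and 9.09% of the list, against 12.0% and 10.2% of all genes.

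Known targets of canonical signalling lay on both sides of the control. Of 20 listed targets 15 reached 1 FPKM, with median log2 ratios of 0.028 with NELL2 overexpression and 0.091 after Fn1 knockdown. With NELL2 overexpression Nkd2, a feedback inhibitor, was at 10.3 FPKM against 6.27 FPKM in the control, a log2 ratio of 0.64 and the only target past the lower cutoff (6.67% of the list, against 5.50% of all genes higher), while its relative Nkd1 was at 2.59 against 3.30 FPKM. After Fn1 knockdown Ccnd1, cyclin D1, was called, at 126 FPKM against 262 FPKM in the control, a log2 ratio of -1.04, where 0.549% of all genes were called lower. It was also the only target past the lower cutoff downward, 6.67% of the list against 12.0% of all genes. Axin2 and Tnfrsf11b, the gene for osteoprotegerin (from 79.4 to 120 FPKM), were higher there past the lower cutoff, 13.3% of the list against 10.2% of all genes. Notum, Tcf7 and Znrf3 were within the lower cutoff in both, and Sp5 was listed at 0. These genes also answer to other pathways, and no readout of β-catenin activity was made.

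Over the wider pathway, 107 of 108 listed genes were found. With NELL2 overexpression 74 reached 1 FPKM, of which 39 were higher and 35 lower than the control, 1 passed the lower cutoff upward (1.35%, against 5.50% of all genes) and none downward (against 4.05%). Of all genes, 52.3% were higher. After Fn1 knockdown 76 reached 1 FPKM, with 47 higher and 29 lower, 11 past it upward (14.5%, against 10.2% of all genes) and 5 downward (6.58%, against 12.0%). Those 11 include Wnt2b and Wnt4, which passed the filter through the knockdown library alone. With no pseudocount the numbers were 12 (15.8%, against 13.4% of all genes) and 11 (14.5%, against 15.8%). The share downward stayed below that of all genes, by an amount that depended on the pseudocount. Ccnd1 was the only one called in either comparison with a pseudocount of 1 or 5, 1.32% of the 76 genes after Fn1 knockdown against 0.549% and 0.167% of all genes called lower. With 0.1 or none Wnt2b and Lgr6 were called too, with plain FPKM folds of 3.49 and 2.21 after Fn1 knockdown. The share called lower was again 1.32% at these settings, below the 1.42% and 1.69% of all genes. The median log2 ratios were 0.0033 and 0.081. The lists were drawn up by function, share members and include the 10 genes.

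**Figure D4:**
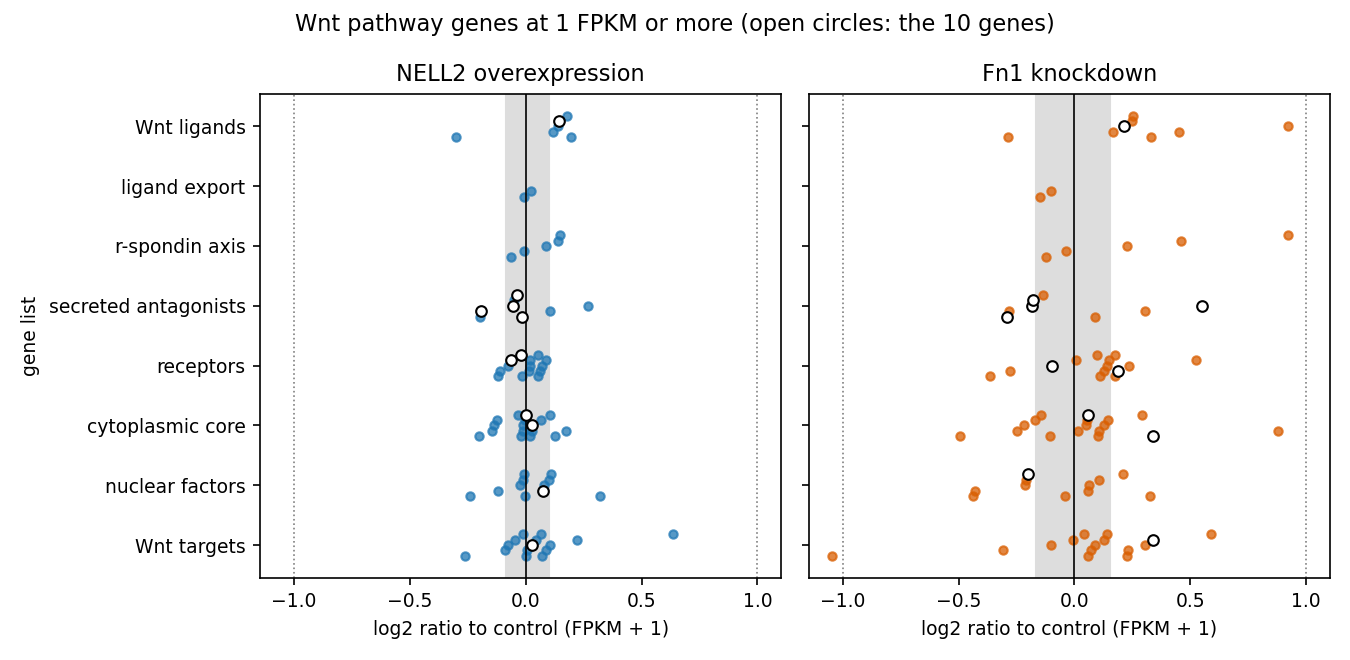
Log2 ratio to the control of Wnt pathway genes at 1 FPKM or more, 1 row for each list and 1 panel for each comparison, with open circles for the 10 genes, grey for the interquartile range of all genes and dotted lines at 2-fold. With NELL2 overexpression the points gather near 0, and after Fn1 knockdown Ccnd1 reaches -1.04 and Wnt2b, Lgr6 and Apc approach the upper line.

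The genes with the most similar pair of ratios were sought among the 12733 genes that reached 1 FPKM anywhere, by the straight-line distance between their pairs of log2 ratios. For Dkk2 they were Papd5, Txnrd1 and Tnfrsf26, at distances of 0.012, 0.013 and 0.014. Tnfrsf26 had a level like that of Dkk2 as well, at 1.57, 1.52 and 2.78 FPKM. For Axin2 they included Tmcc3 and Mrps16, at 0.0075 and 0.0078. With 3 libraries this likeness rests on 2 numbers per gene.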

How the data were processed

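Polyadenylated RNA of ST2 cells was sequenced as paired ends on an MGISEQ-2000. Per the study's methods the authors mapped reads to mouse transcripts with HISAT2, and the processing notes also list GRCm38 and DESeq. The deposited values were FPKM per gene name. The program behind FPKM and its annotation are not given in the sources used here. The study's methods mention strand alignment and filtering, but not whether fragments were counted by strand. Strand and shared exons can therefore move a value.

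From these values log2(FPKM + 1) ratios to the control were computed (Python 3.11.15, pandas 2.3.3, scipy 1.17.1). With 1 library in each group no test and no p-value was made. The design had also foreseen counts, which the table did not hold. Library totals were read from low values: in genes with a single transcript of at least 600 bases, the most frequent small value of FPKM times length was taken as 1 fragment, and the calculation was checked on drawn counts. Fragment numbers are approximate. Whole reads were not recovered.

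Gene models came from GENCODE M21 (GRCm38) and promoters from RefSeq (GRCm38.p6). Tle5 matched no single name, and 2 list genes were matched through older symbols. The 10 genes, the pathway lists and the marker lists were chosen with earlier results of these data known. Genes named are the 10, members of the lists, Nell2 and Fn1, and for the 2 of the 10 with the largest ratio the 3 nearest genes, of which 1 is not reported here. Alternatives changed the pseudocount, the cutoff, the filter and the scaling.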

Additional observations from a re-analysis of the deposited data

How the results depend on the processing

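None of the 10 genes was called at 2-fold in either comparison with a pseudocount of 0.1 or 5, a 1.5-fold cutoff, a filter of 5 FPKM, no filter, median-of-ratios scaling or scaling to the sum without mitochondrially encoded genes, Fn1 and Nell2, nor without a pseudocount, a setting chosen after seeing the data. The lower cutoff of 0.32 called 2 genes after Fn1 knockdown, Dkk2 and Axin2, and 0 with NELL2 overexpression. At that cutoff a pseudocount of 5 left 0 genes higher after knockdown, and 0.1 or none added 1 lower, Sfrp2, while NELL2 overexpression stayed at 0 throughout. In the wider pathway with NELL2 overexpression, 2 genes were higher with 0.1 (2.70%, against 7.80% of all genes) and 3 with none (4.05%, against 8.14%), and 3 were lower with either (4.05%, against 5.95% and 6.32%). After knockdown 6 were higher with 5 (7.89%, against 5.13%), and 10, 2 and 11 were lower with 0.1, 5 and none (13.2%, 2.63% and 14.5%, against 15.3%, 4.93% and 15.8%). At 2-fold, 2 were higher with 0.1 or none (2.63%, against 1.42% and 1.54%) and 1 was lower (1.32%, against 1.42% and 1.69%). These pseudocount checks of the lower cutoff and of the wider pathway were chosen after seeing the data. With a pseudocount of 1 every gene past 2-fold is above the filter anyway, and the scaling factors lay between 0.998 and 1.01, so these settings test little. The filter of 5 FPKM kept 6 of the 10 genes with NELL2 overexpression and 7 after Fn1 knockdown. Of 133 ratios of single genes under the alternatives, 131 stayed inside the counting interval carried to the log2(FPKM + 1) scale. The other 2 were those of Dkk2 after knockdown with a pseudocount of 5 (0.24) and with none (0.82), of which the latter is the plain fold at the centre of the interval given in FPKM. The ratio of Ctnnb1 with NELL2 overexpression, near 0, changed sign under both scalings (-0.0083 and -0.013).

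Among 90 list medians under the alternatives, 86 lay within 0.1 of the value given. The rest were the ligand list (0.14) and the R-spondin list (0.11) after Fn1 knockdown with a pseudocount of 5, and the R-spondin list with the filter of 5 FPKM, at 0.69 over 2 genes after Fn1 knockdown and -0.064 over 1 gene with NELL2 overexpression, where few genes remain. Of those 2 genes Lgr6 passed that filter through the knockdown library alone, so the 0.69 partly follows from the filter. Signs changed for 7 medians, all with NELL2 overexpression. No paired analysis was possible because there was a single library per group, and leaving one out would leave no comparison.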
